A study of Arabidopsis thaliana with 13 samples.

Results

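Seeds held for 3 days (3d) on water-soaked paper in the dark at 30 °C were compared with dry seeds of the same line, Arabidopsis thaliana Col-0, separately in small and in large seeds. The 3d side consisted of 6 libraries, 3 of small and 3 of large seeds, each made by summing the counts of 32 single seeds. The dry side consisted of 8 libraries, 4 of small and 4 of large seeds, each from a pool of 100 seeds. Together these were 14 of the 24 libraries of the series, chosen by their labels alone, and the comparison was made over the 37184 genes that both count tables listed. A gene was said to rise or fall only where the 3d and dry libraries differed with the same sign in both sizes.

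The state of the seeds and the way they were measured cannot be told apart in this comparison. Every 3d library came from single-seed lysates, made with proteinase K and reverse transcribed without purified RNA, and every dry library from RNA purified from 100 ground seeds with phenol-based extraction. Both were sequenced from the 3′ end of the transcript with barcoded oligo(dT) primers, but as separate experiments on seeds sorted separately by an imaging robot, so the size limits of small and large also differed between them. Thus each difference between 3d and dry seeds given here is a difference between state and method together. The contrast of the change in small seeds with the change in large seeds is less exposed, because a method effect that is equal in both sizes on the log scale cancels in it. The size limits and the seed pools also differed between the experiments, so that this contrast cannot be fully told apart from the experiment either.

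An Arabidopsis seed dries at the end of its maturation with a large store of messenger RNA, much of it for storage proteins, oil body proteins and the late embryogenesis abundant (LEA) proteins that protect dry cells. When the seed takes up water, stored transcripts are degraded and new ones are made. In a seed that can germinate this includes the enzymes that break down oil and loosen the cell wall, and it depends on the balance between abscisic acid (ABA), which holds germination back, and gibberellin, which promotes it. Warmth and darkness during imbibition put after-ripened seeds, which have lost their primary dormancy in storage, into secondary dormancy, in which they take up water and stay metabolically active without germinating.

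All seeds were wild type and had been stored dry for at least 6 months. The 4 dry libraries of each size came from 4 biological replicates that small and large seeds shared, whereas the single seeds at 3d came from a single seed pool, so that the 3 libraries of a size at 3d differ in their seeds and in their preparation alone. The p-values therefore measure the spread between seed pools on the dry side, and on the 3d side a spread that may be technical. The 3d libraries held 2309854 to 3185495 counts and the dry libraries 554305 to 2079317. After thinning every library to 554305 counts, 16404 genes on average had a count in 3d small seeds, against 13206 in dry small seeds, and 16901 in 3d large seeds, against 13929 in dry large seeds. The seed markers SESA1, CRA1, OLEO1, EM1 and EM6 were counted in all 14 libraries. Of the green tissue markers, LHCB1.1 had 8 counts over all 3d libraries and 2 over all dry libraries. In the same order LHCB1.3 had 21 and 23, LHCB2.1 had 2 and 2 and LHCA1 had 12 and 17, whereas RBCS1A had enough counts to test. Of the markers of the endosperm of imbibed seeds, EXPA2 had 3 and 1. The endosperm markers EPR1 and MAN7 had enough counts to test and moved in opposite directions, as given below. Only counts relative to the other genes of a library were measured, so fewer cells of a type and less RNA per cell cannot be told apart.

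Of 13001 genes with enough counts to test, 3090 rose and 2689 fell in both sizes, 23.8% and 20.7% of those tested. Differences were called at an adjusted p of 0.05 by edgeR's quasi-likelihood test, two-sided, with Benjamini-Hochberg adjustment over all tested genes, and every adjusted p given here comes from it. In small seeds 4162 genes (32%) were higher at 3d and 3362 (25.9%) lower, and in large seeds 3844 (29.6%) were higher and 3426 (26.4%) lower. Only 30 genes were called in opposite directions in the 2 sizes. For 4900 of the 5779 genes called with the same sign, the 3d and the dry libraries did not overlap within either size. A change of at least 2-fold in both sizes was found for 2228 risers (17.1%) and 1419 fallers (10.9%). The median log2 change of the risers was 1.90 in small and 1.52 in large seeds, and that of the fallers was -1.30 in small and -1.14 in large seeds.

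The split between higher and lower genes depended on how the libraries were scaled. The dry libraries of small seeds received scaling factors of 0.68 to 0.83 by the trimmed mean of M values (TMM), those of large seeds 0.98 to 1.05, and the 3d libraries 1.08 to 1.27. With TMM the median log2 change of all genes was 0.17 in small and 0.09 in large seeds, and 55.3% of the called genes in small seeds and 52.9% in large seeds were higher at 3d. Upper-quartile factors put those shares at 64.1% and 64.4%, and library totals alone at 79.8% and 66.6%, where the median of all genes was 0.79 in small and 0.33 in large seeds. A change of less than about 1 log2 unit in small seeds can thus turn with the scaling, and each gene named below whose direction turned is listed with the processing alternatives. Values per library are given as CPM, the count of a gene relative to the TMM-scaled total of its library, in the order of the replicate numbers.

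**Figure D1:**
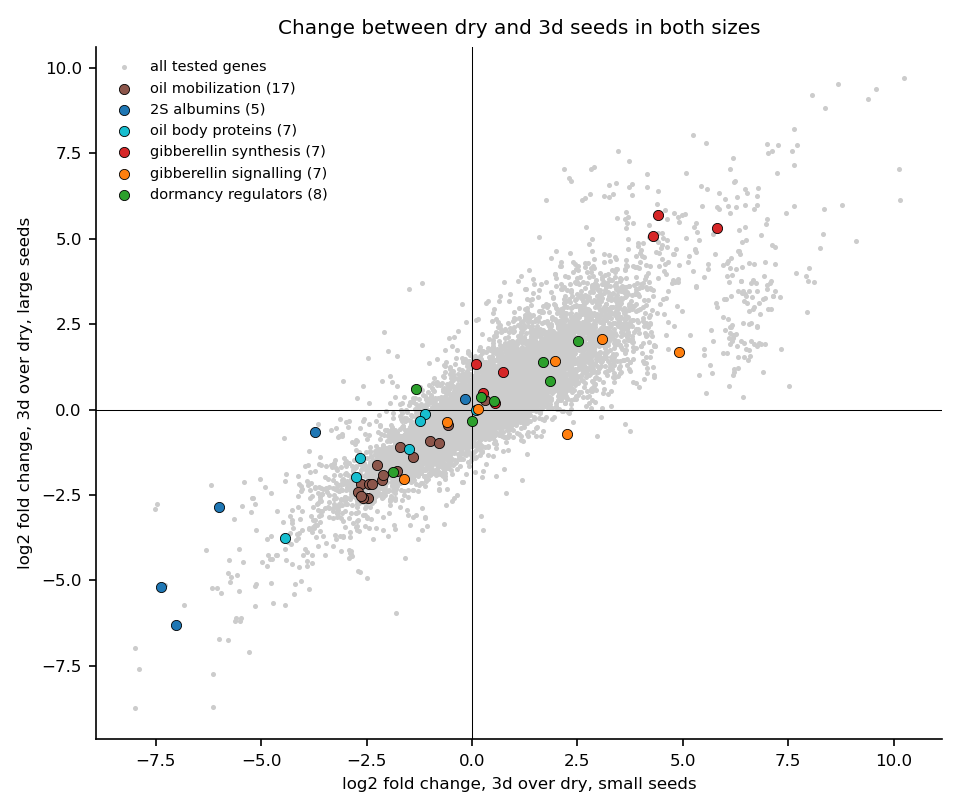
The log2 fold change of 3d over dry seeds is plotted for each of the 13001 tested genes, in small seeds on the x axis and in large seeds on the y axis. Grey points are all tested genes and coloured points the members of named groups. Most points lie along the diagonal, the oil mobilization genes lie in the lower left apart from ACX4, and the 2S albumins lie left of the diagonal, with SESA5 near the origin.

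The genes that rose most were absent or almost absent from dry seeds. XTH15, which encodes a xyloglucan-modifying enzyme of the cell wall, had 35, 51.9 and 150.2 CPM in 3d small seeds, against no count in any of the 4 dry small libraries. In large seeds it had 13.8, 45.2 and 100.3 CPM at 3d, again with no count in the dry libraries. Taking 3 counts over the group as the limit that no count allows, XTH15 was at least 75.8-fold higher at 3d in small seeds and at least 105-fold higher in large seeds. All 3d libraries lay above all dry ones, which was a condition for naming the gene, but the 3d libraries of each size differed by several-fold among themselves. PBS3, an enzyme of salicylic acid synthesis, was even across libraries, with 20.3, 20.4 and 23.6 CPM in 3d small seeds and 27.5, 32 and 29.6 CPM in 3d large seeds, and had no count in dry seeds, which makes it at least 21.2-fold higher in small and 55.9-fold higher in large seeds. GASA1, a small gibberellin-responsive peptide gene, had 100.2, 57.3 and 95 CPM in 3d small seeds, against 1.67, 0, 0 and 0 in dry small seeds, a log2 change of 7.71 ± 0.53 (adjusted p = 3.1e-12). In large seeds it had 55.1, 41.8 and 59.8 CPM at 3d, against 1.21, 0, 0 and 0 in dry seeds (7.74 ± 0.51, adjusted p = 1.9e-12). A single dry library of each size held any GASA1 count. ACS4, which makes the ethylene precursor ACC, changed by 6.76 ± 0.60 in small and 6.24 ± 0.48 in large seeds, and NTL8, a membrane-bound NAC transcription factor, was at least 25.7-fold higher in small and 93.8-fold higher in large seeds.

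For some of these genes the rise was carried by a minority of seeds. EXPA4, a wall-loosening expansin, had counts in 29 of 96 small and 29 of 96 large seeds at 3d, and the 5 seeds with the most counts held 67.6% of all its counts in small and 63.3% in large seeds. AT5G52390, which encodes a PAR1 family protein, was counted in 25 of 96 small and 29 of 96 large seeds, with 84.4% and 74.8% of its counts in 5 seeds. By contrast ACS4 had counts in 92 of 96 small and 93 of 96 large seeds, with 17% and 19.3% of its counts in the 5 highest. These shares count seeds with a read and depend on the depth of each seed, whose number of counts was under 20000 in 5 of the 192 seeds. The dry pools of 100 seeds give no such view of single seeds.

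The largest fall was that of EPR1, an extensin-like cell wall protein gene known from the endosperm of germinating seeds. It had 240.1, 125 and 100.9 CPM in 3d small seeds, against 50770, 30440, 36730 and 41690 CPM in dry small seeds, a log2 change of -8.00 ± 0.30 (adjusted p = 4.5e-17). In large seeds it had 92.3, 82 and 61.3 CPM at 3d, against 31950, 34050, 33690 and 32670 CPM in dry seeds (-8.72 ± 0.31, adjusted p = 2.4e-17). EPR1 alone took 0.0175% of the counts in 3d small and 0.00918% in 3d large seeds, against 3.10% in dry small and 3.33% in dry large seeds, and its counts at 3d came from 95 of 96 small and 90 of 96 large seeds. AT1G17010, an oxygenase of the 2-oxoglutarate type, fell to 10.9, 7.16 and 8.79 CPM in 3d small seeds, against 473, 398, 478 and 406 CPM in dry ones, and changed alike in large seeds (-5.60 ± 0.20 in small and -6.08 ± 0.21 in large seeds). Among the 12 largest falls were also SESA4, the chitinase gene AT2G43590, NSP5, which directs glucosinolate breakdown to nitriles, EDS16, an isochorismate synthase of salicylic acid synthesis, TPPJ, a trehalose phosphate phosphatase, and SIP2, an alpha-galactosidase that acts on raffinose. SIP2 had 3.23, 2.86 and 3.17 CPM in 3d small seeds, against 148, 122, 158 and 140.3 CPM in dry small seeds, and changed by -5.51 ± 0.24 in small and -6.20 ± 0.24 in large seeds. In each of these genes the 3d libraries lay below every dry library of their size, which was a condition for naming them.

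Storage protein transcripts did not move as a block. Of the 5 tested 2S albumin genes, which encode small storage proteins of the protein bodies, 4 fell in both sizes and none rose. Among all tested genes 20.7% fell and 23.8% rose. The median log2 changes of the 2S albumins were -6.01 in small and -2.86 in large seeds, beside 0.17 and 0.09 for all genes. SESA3 had 444, 303 and 234 CPM in 3d small seeds, against 51110, 43640, 78930 and 44690 CPM in dry small seeds (-7.38 ± 0.29, adjusted p = 8.0e-17). In large seeds SESA3 had 319, 399.9 and 334 CPM at 3d, against 14470, 10150, 11670 and 14820 CPM in dry seeds (-5.18 ± 0.26, adjusted p = 8.3e-15). The exception was SESA5, with 35350, 32020 and 28930 CPM in 3d small seeds, against 33810, 33480, 39330 and 37080 CPM in dry small seeds, where the 2 groups overlapped (-0.16 ± 0.16, adjusted p = 0.38). SESA5 did not pass in large seeds either, with 34830, 34100 and 31100 CPM at 3d, against 30340, 20470, 25820 and 31510 CPM in dry seeds (0.30 ± 0.15, adjusted p = 0.097). The list as a whole held 3.78% of counts in 3d small seeds, against 8.20% in dry small seeds, and 4.03% in 3d large seeds, against 4.50% in dry large seeds, where the libraries overlapped. SESA1 to SESA4 are closely similar neighbours in the genome, and how reads matching several of them were counted is not given in the sources used here, so values of the single genes are uncertain.

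The 12S cruciferins, the larger storage proteins, moved in both directions. CRB fell to 742, 754 and 702 CPM in 3d small seeds, against 9640, 10810, 19880 and 9150 CPM in dry small seeds (-4.08 ± 0.22, adjusted p = 3.7e-14), and changed by -3.20 ± 0.21 in large seeds. CRA1 rose in large seeds, with 66770, 63680 and 59990 CPM at 3d, against 22830, 27970, 24620 and 24680 CPM in dry seeds (1.34 ± 0.18, adjusted p = 4.1e-07). In small seeds CRA1 had 71080, 66320 and 60460 CPM at 3d, against 38750, 43410, 70910 and 40740 CPM in dry seeds, where dry replicate 3 lay inside the 3d range (0.44 ± 0.18, adjusted p = 0.032). That small-seed call did not hold without 3d replicate 1 (0.39, adjusted p = 0.081) or 2 (0.46, adjusted p = 0.063), nor without dry replicate 1 (0.35, adjusted p = 0.11), 2 (0.39, adjusted p = 0.084) or 4 (0.37, adjusted p = 0.11). The cruciferin list held 14.6% of counts in 3d small seeds, against 9.43% in dry small seeds, and 15.0% in 3d large seeds, against 5.28% in dry large seeds. These shares rest on library totals, and the list's median log2 changes with TMM were -0.65 in small and 0.83 in large seeds. With the totals scaled by TMM, chosen after seeing the data, the shares of small seeds overlapped, at 12.6% at 3d, against 12.3% in dry seeds, and those of large seeds did not, at 12.6% at 3d, against 5.23% in dry seeds.

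The promoters of a faller and of a member of the same family that did not fall are shown as pairs for the 2S albumins and the LEA proteins, because these families split. The sequences are the 250 bases before the annotated gene start, read from the RefSeq TAIR10.1 genome on the strand of the gene, 5′ to 3′. Capitals mark the ABRE core of ABA-responsive promoters (ACGTG), the G-box that contains it (CACGTG), the RY element of seed storage genes (CATGCA), the site II element (TGGGCC) and the telobox (AAACCCTA), searched on both strands. The window of SESA3 lies at chr4:13611546-13611795 (+), SESA5 at chr5:22239188-22239437 (-), RAB18 at chr5:26519448-26519697 (-) and EM6 at chr2:16780369-16780618 (-).
SESA3 promoter: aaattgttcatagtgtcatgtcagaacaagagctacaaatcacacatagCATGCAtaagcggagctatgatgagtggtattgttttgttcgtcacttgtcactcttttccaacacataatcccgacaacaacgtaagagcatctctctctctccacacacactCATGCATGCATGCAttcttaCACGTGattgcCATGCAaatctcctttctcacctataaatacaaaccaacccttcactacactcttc
SESA5 promoter: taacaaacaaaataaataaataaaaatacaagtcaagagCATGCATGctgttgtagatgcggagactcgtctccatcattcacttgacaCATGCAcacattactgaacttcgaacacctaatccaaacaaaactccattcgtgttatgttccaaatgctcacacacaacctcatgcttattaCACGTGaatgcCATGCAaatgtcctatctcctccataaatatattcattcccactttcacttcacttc
RAB18 promoter: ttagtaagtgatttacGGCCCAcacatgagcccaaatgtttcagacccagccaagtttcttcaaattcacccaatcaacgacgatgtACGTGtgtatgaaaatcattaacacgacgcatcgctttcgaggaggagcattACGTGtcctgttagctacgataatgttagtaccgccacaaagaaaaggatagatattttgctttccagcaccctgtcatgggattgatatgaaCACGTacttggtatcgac
EM6 promoter: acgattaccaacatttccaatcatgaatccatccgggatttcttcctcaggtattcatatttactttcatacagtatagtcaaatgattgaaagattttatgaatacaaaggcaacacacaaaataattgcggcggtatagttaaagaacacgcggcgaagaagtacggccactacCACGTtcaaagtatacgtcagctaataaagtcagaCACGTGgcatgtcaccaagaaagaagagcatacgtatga

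SESA3 and SESA5, which differed in outcome, both carried a G-box and several RY elements in this window, as did 5 of 5 2S albumin promoters for each of the 2 motifs. In the LEA pair, RAB18, which fell, and EM6, which rose, both had ABRE cores, and EM6 also a G-box. The ABRE core was found in 24.3% of 2193 promoters of genes that rose at least 2-fold, 29.5% of 1416 promoters of genes that fell at least 2-fold and 23.8% of 12913 promoters of all tested genes, and in 20.8% of all 36897 promoters read. The G-box was in 7.66% of the risers, 12.3% of the fallers, 8.36% of all tested genes and 5.45% of all promoters. The RY element was in 7.52% of the risers, 8.76% of the fallers, 6.92% of all tested genes and 8.82% of all promoters. A match is a description of these letters in this window and not a binding site.

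Of 7 tested genes for proteins of the oil body surface, 5 fell in both sizes and none rose, beside 20.7% fallers and 23.8% risers among all tested genes, with median log2 changes of -1.50 in small and -1.16 in large seeds. OLEO1, a major oleosin, had 3528, 3101 and 2930 CPM in 3d small seeds, against 21950, 20210, 25450 and 18970 CPM in dry small seeds (-2.76 ± 0.15, adjusted p = 5.3e-14), and 3535, 3492 and 3064 CPM in 3d large seeds, against 13450, 12320, 12730 and 14530 CPM in dry large seeds (-1.98 ± 0.15, adjusted p = 2.2e-11). CLO1, a caleosin with peroxygenase activity, changed most (-4.43 ± 0.20 in small and -3.76 ± 0.19 in large seeds). OLEO3 did not pass in either size (0.10 ± 0.17 and -0.02 ± 0.15), and OLEO5 passed in small seeds alone (-1.12 ± 0.15 in small and -0.13 ± 0.15 in large seeds). OLEO2 was among the 5, but its change in large seeds (-0.34 ± 0.13, adjusted p = 0.032) did not pass without 3d replicate 2 (-0.33, adjusted p = 0.09) or 3 (-0.29, adjusted p = 0.12) or dry replicate 1 (-0.33, adjusted p = 0.066) or 3 (-0.28, adjusted p = 0.101). The list took 1.27% of counts in 3d small and 1.44% in 3d large seeds, against 3.85% in dry small and 2.91% in dry large seeds.

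More LEA transcripts fell than rose, and EM1 and EM6 were among the risers. Of 37 tested LEA genes 22 fell and 8 rose in both sizes, 59.5% and 21.6%, beside 20.7% and 23.8% of all tested genes, with medians of -0.82 in small and -0.67 in large seeds. RAB18, an ABA-responsive dehydrin, had 9738, 8548 and 6621 CPM in 3d small seeds, against 71240, 76830, 90930 and 72670 CPM in dry small seeds (-3.23 ± 0.19, adjusted p = 1.1e-13). In large seeds RAB18 had 9130, 6843 and 5975 CPM at 3d, against 44340, 40060, 45470 and 47600 CPM in dry seeds (-2.60 ± 0.18, adjusted p = 5.1e-12). The 3d and dry ranges were several-fold apart in both sizes. EM6, a group 1 LEA gene, rose with 36220, 34210 and 23280 CPM in 3d small seeds, against 13670, 15840, 12530 and 16240 CPM in dry small seeds (1.101 ± 0.17, adjusted p = 3.4e-06), and 32120, 30110 and 22140 CPM in 3d large seeds, against 14710, 12650, 15030 and 15360 CPM in dry large seeds (0.96 ± 0.17, adjusted p = 2.3e-05). Its relative EM1 changed by 0.76 in small and 1.399 in large seeds on the log2 scale. LTI30, a dehydrin, changed by -4.98 in small and -4.47 in large seeds, AT4G36600 by -4.43 and -4.07, and LEA7 by -3.39 and -2.49. LEA genes together held 9.20% of counts in 3d small and 8.96% in 3d large seeds, against 15.1% in dry small and 13.2% in dry large seeds. ABRE cores were present in 29 of 37 LEA promoters.

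**Figure D2:**
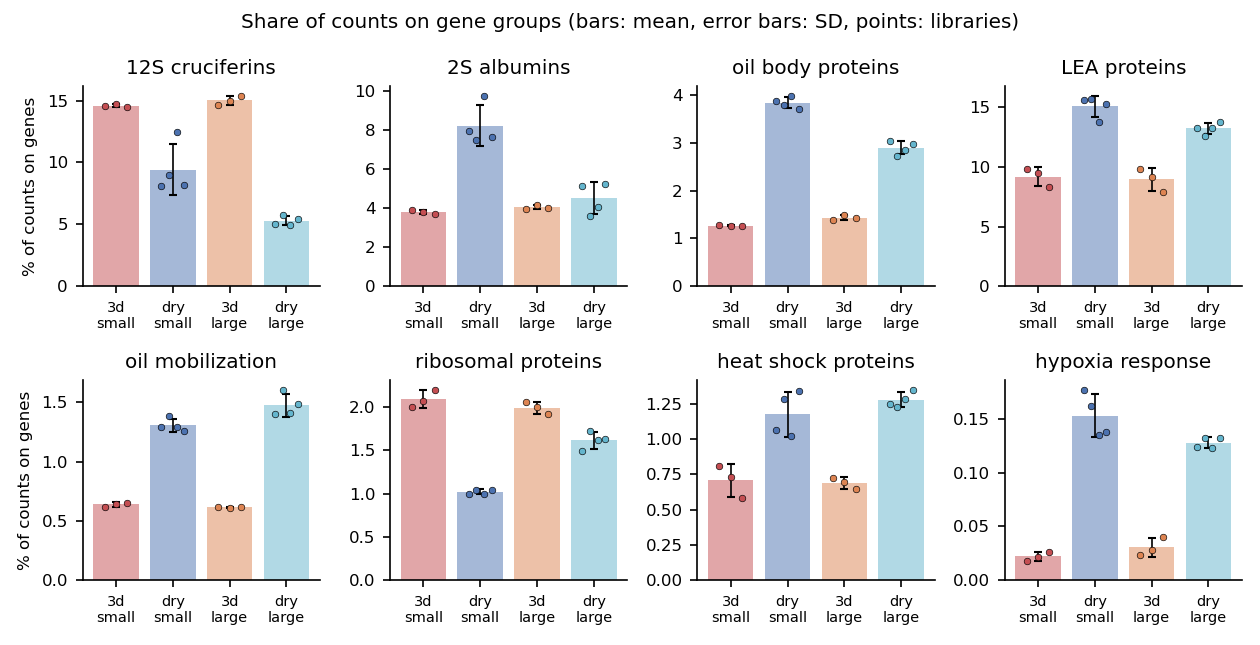
The share of the counts on genes is plotted in percent for groups of genes in each of the 14 libraries, with 3d left of dry for each size. Bars are means, error bars are SDs and points are libraries. With these unscaled totals cruciferins held a larger share at 3d in both sizes, which in small seeds did not hold with TMM-scaled totals, and oil body, LEA and oil mobilization genes a smaller share.

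Storage, oil body and LEA transcripts together held 28.8% of counts in 3d small seeds, against 36.6% in dry small seeds, and 29.4% in 3d large seeds, against 25.9% in dry large seeds. These shares too rest on library totals. With the totals scaled by TMM they were 24.9% in 3d small seeds, against 47.4% in dry small seeds, and 24.8% in 3d large seeds, against 25.7% in dry large seeds, where the libraries overlapped. Thus the lower share at 3d in small seeds held with either total, and the higher share at 3d in large seeds did not.

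The genes that turn stored oil into sugar were nearly all lower at 3d. Of 17 tested genes of lipolysis, peroxisomal β-oxidation, the glyoxylate cycle and gluconeogenesis 16 fell and none rose, beside 20.7% fallers among all tested genes, with medians of -2.14 in small and -1.90 in large seeds. MLS, the malate synthase of the glyoxylate cycle, had 658, 608 and 564.1 CPM in 3d small seeds, against 4089, 3818, 3510 and 3802 CPM in dry small seeds (-2.64 ± 0.14, adjusted p = 1.3e-14). In large seeds MLS had 621, 608 and 570.1 CPM at 3d, against 3205, 3787, 3315 and 3584 CPM in dry seeds (-2.53 ± 0.14, adjusted p = 3.2e-14), so that the values were alike in the 2 sizes in either state. ICL, the isocitrate lyase of the same cycle, changed less (-1.0003 ± 0.14 in small and -0.92 ± 0.14 in large seeds). PCK1, which starts gluconeogenesis, changed by -2.72 ± 0.14 in small and -2.42 ± 0.14 in large seeds, the thiolase KAT2 by -2.14 ± 0.13 and -2.06 ± 0.13, and the lipase SDP1 by -2.38 ± 0.19 and -2.17 ± 0.19. The acyl-CoA oxidase ACX4 was the single member that did not pass (0.30 ± 0.17, adjusted p = 0.13, in small seeds and 0.28 ± 0.16, adjusted p = 0.15, in large seeds). The 3 other acyl-CoA oxidases tested, ACX1, ACX2 and ACX3, fell. The list took 0.638% of counts in 3d small and 0.615% in 3d large seeds, against 1.30% in dry small and 1.47% in dry large seeds.

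**Figure D3:**
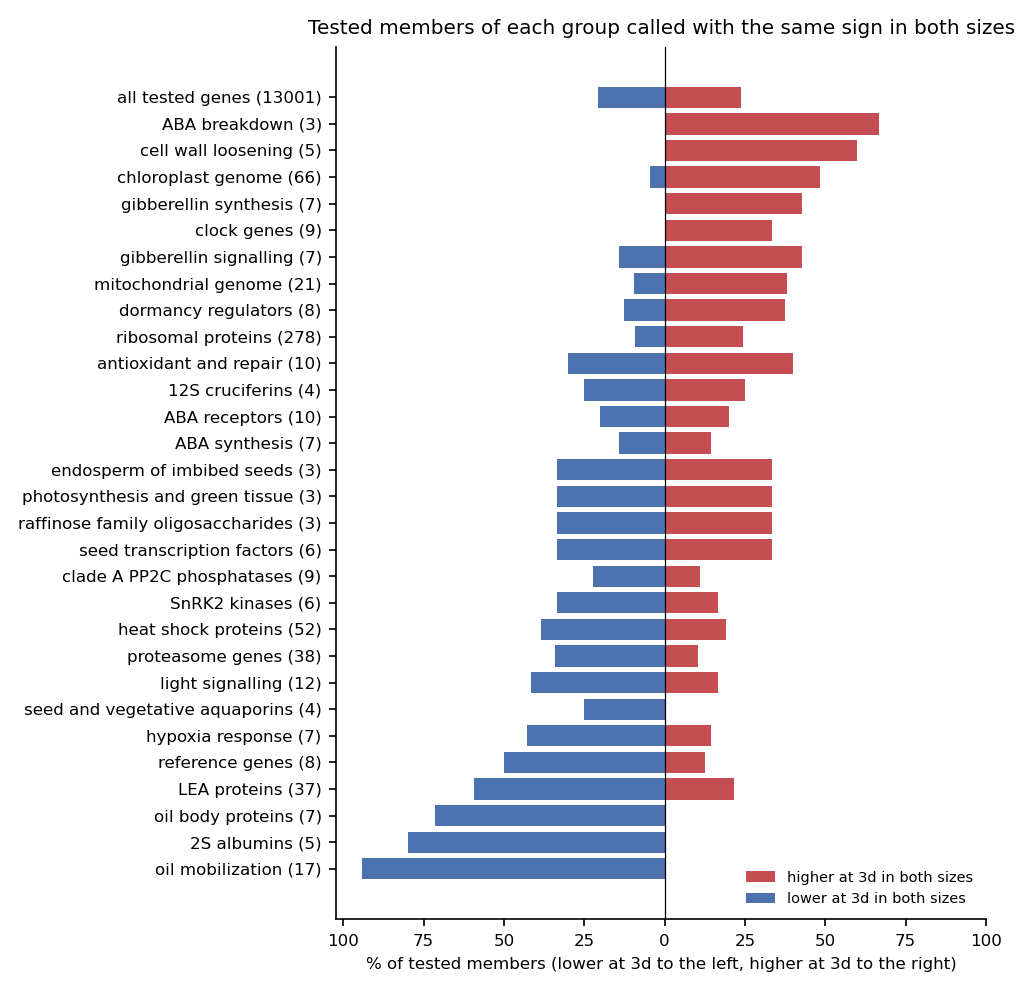
For each group of genes the percentage of tested members that were called with the same sign in both sizes is drawn, to the right for genes higher at 3d and to the left for genes lower at 3d. The number of tested members stands in brackets. Oil mobilization (16 of 17 lower), 2S albumins (4 of 5 lower) and oil body proteins (5 of 7 lower) lie furthest to the left among groups of 5 or more.

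ABA signalling genes split by family member. In this pathway the PYR/PYL receptors bind ABA and inhibit clade A type 2C protein phosphatases (PP2C), which otherwise keep SnRK2 kinases inactive. Of 9 tested clade A PP2C genes 2 fell (22.2%, near the 20.7% of all tested genes) and 1 rose (11.1%, beside 23.8% of all tested genes). The change of 1 member was called as different between the sizes. AHG1, a phosphatase active in seeds, had 92.6, 90.9 and 94.2 CPM in 3d small seeds, against 687, 540.5, 569 and 518 CPM in dry small seeds (-2.64 ± 0.14, adjusted p = 2.1e-14), and 89.7, 89.5 and 108 CPM in 3d large seeds, against 553, 571, 593 and 579.9 CPM in dry large seeds (-2.58 ± 0.14, adjusted p = 3.3e-14). The 14 values form 2 tight, well separated groups. ABI2 fell as well (-2.49 ± 0.23 in small and -2.59 ± 0.21 in large seeds), and HAI3, an ABA-induced PP2C, rose, with 81.4, 122 and 94.2 CPM in 3d small seeds, against 13.3, 28.4, 20.2 and 16.8 CPM in dry small seeds (2.34 ± 0.22 in small and 2.15 ± 0.19 in large seeds). AHG3, HAI1 and ABI1 did not pass in either size. HAB1, HAB2 and HAI2, whose values are not given here, neither rose nor fell in both sizes.

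Of 10 tested receptors 2 rose and 2 fell, near the 23.8% and 20.7% of all tested genes. PYL12 had 0, 0.716 and 0 CPM in 3d small seeds, against 8.34, 6.57, 13.7 and 13.1 CPM in dry small seeds, and 0, 0.628 and 0 CPM in 3d large seeds, against 52.2, 31.9, 29.9 and 45.9 CPM in dry large seeds (-5.29 ± 0.69 in small and -7.09 ± 0.51 in large seeds). PYL11, its neighbour and close relative, fell too (-2.74 ± 0.57 in small and -3.44 ± 0.43 in large seeds). PYL2 rose (1.80 ± 0.59 and 2.09 ± 0.47), a call lost in small seeds without 3d replicate 3 (1.33, adjusted p = 0.062) or dry replicate 3 (1.59, adjusted p = 0.076). PYR1 rose in small seeds (1.47 ± 0.25, adjusted p = 1.5e-05) and in large seeds (0.50 ± 0.19, adjusted p = 0.028), where the call was lost without 3d replicate 1 (0.44, adjusted p = 0.085) or 2 (0.51, adjusted p = 0.061) or dry replicate 3 (0.52, adjusted p = 0.051) or 4 (0.44, adjusted p = 0.077). Among the kinases SnRK2.10 fell, with 89.7, 92.7 and 93.9 CPM in 3d small seeds, against 302, 352, 507 and 391 CPM in dry small seeds (-2.09 ± 0.16 in small and -1.55 ± 0.16 in large seeds), and SnRK2.5 rose (2.77 ± 0.60 and 3.30 ± 0.57).

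Genes of ABA metabolism moved on both sides of the pathway. NCED9, which makes the cleavage that commits carotenoids to ABA, had 18.8, 21.1 and 25.3 CPM in 3d small seeds, against 6.67, 6.57, 5.78 and 5.61 CPM in dry small seeds (1.83 ± 0.32 in small and 2.15 ± 0.27 in large seeds). The earlier enzyme ABA1, a zeaxanthin epoxidase, fell (-1.54 ± 0.18 and -1.19 ± 0.17). Of the ABA 8′-hydroxylases, which break the hormone down, CYP707A1 rose (2.401 ± 0.57 and 1.60 ± 0.40). CYP707A3 rose as well (2.53 ± 0.82 and 3.67 ± 0.81), a call lost in small seeds without dry replicate 3 (1.70, adjusted p = 0.11). CYP707A2 did not pass in small seeds (0.00 ± 0.22, adjusted p = 0.996) and was lower at 3d in large seeds (-1.04 ± 0.19, adjusted p = 3.9e-05). Its change did not differ between sizes at the threshold (adjusted p = 0.057 for the difference).

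Among gibberellin synthesis genes the 20-oxidases rose. GA20ox3, which acts at the rate-limiting oxidation steps, had 371, 512 and 723 CPM in 3d small seeds, against 13.3, 19.7, 2.89 and 11.2 CPM in dry small seeds (5.81 ± 0.39, adjusted p = 1.9e-12). In large seeds it had 266, 553 and 794 CPM at 3d, against 8.5, 12.5, 15.5 and 16.8 CPM in dry seeds (5.31 ± 0.33, adjusted p = 7.5e-13). GA20ox3 was counted in all 96 small and all 96 large single seeds. GA20ox1 and GA20ox2 also rose but lost their call in small seeds without 3d replicate 3 (2.55, adjusted p = 0.14, for GA20ox1 and 2.27, adjusted p = 0.094, for GA20ox2) or without dry replicate 3 (3.63, adjusted p = 0.095, and 3.45, adjusted p = 0.064). GA3ox1 and GA3ox2, which make the active hormone, had too few counts to test, 7 at 3d against 1 in dry seeds and 22 against 3 over all libraries. Of the 7 tested synthesis genes 3 rose (42.9%, beside 23.8% of all tested genes) and none fell (beside 20.7%).

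Among the DELLA proteins, which repress germination until gibberellin triggers their breakdown, RGL2 and RGL3 moved apart. RGL2, the DELLA most tied to germination, had 74.4, 77 and 75.6 CPM in 3d small seeds, against 10, 6.57, 12.3 and 1.87 CPM in dry small seeds (3.08 ± 0.26, adjusted p = 2.0e-10), and 64, 62.5 and 65 CPM in 3d large seeds, against 15.8, 15.7, 9.78 and 22.4 CPM in dry large seeds (2.07 ± 0.21, adjusted p = 6.1e-09). RGL3 had 8.82, 12.2 and 8.79 CPM in 3d small seeds, against 41.7, 43.8, 23.9 and 18.7 CPM in dry small seeds, and changed by -1.62 ± 0.29 in small and -2.05 ± 0.24 in large seeds. SLY1, the F-box protein that marks DELLAs for breakdown, rose (1.97 ± 0.28 and 1.42 ± 0.21), and the receptor GID1A did not pass (0.15 ± 0.15 and 0.01 ± 0.15). RGA and GAI are described with the genes whose change depended on size.

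Dormancy regulators did not share a direction. MFT, a phosphatidylethanolamine-binding protein that acts in ABA responses of seeds, rose, with 148, 156 and 166 CPM in 3d small seeds, against 46.7, 54.7, 57.8 and 31.8 CPM in dry small seeds (1.67 ± 0.18, adjusted p = 2.2e-08), and 167, 200.1 and 187 CPM in 3d large seeds, against 64.4, 76.3, 51.8 and 91.8 CPM in dry large seeds (1.39 ± 0.16, adjusted p = 8.1e-08). RDO2, a transcript elongation factor, fell, with 40, 35.4 and 42.5 CPM in 3d small seeds, against 153, 159.7, 137 and 133 CPM in dry small seeds (-1.88 ± 0.15 in small and -1.82 ± 0.14 in large seeds). ATXR7, a histone methyltransferase, rose (2.52 ± 0.41 and 2.02 ± 0.32). RDO5, a phosphatase-like dormancy protein, had 114, 225 and 450.1 CPM in 3d small seeds, against 85, 96.3, 49.1 and 72.9 CPM in dry small seeds (1.86 ± 0.38, adjusted p = 1.9e-04), and 118, 268 and 500.3 CPM in 3d large seeds, against 168, 156, 147 and 193 CPM in dry large seeds (0.84 ± 0.34, adjusted p = 0.035). The large libraries of RDO5 overlapped, and its call there was lost with DESeq2 (0.93, adjusted p = 0.105) and without 3d replicate 3 (0.24, adjusted p = 0.54) or dry replicate 1 (0.85, adjusted p = 0.067), 2 (0.81, adjusted p = 0.081) or 3 (0.79, adjusted p = 0.087).

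In both sizes RDO5 was lowest in 3d replicate 1 and highest in 3d replicate 3, an order found in 1216 (9.35%) of the 13001 tested genes, and the reverse order in 1237 (9.51%). XTH15, GA20ox3 and DOG1 followed the order of RDO5 in both sizes too. Replicates 1 and 3 were also the most different pair of 3d libraries over all genes in both sizes, with a chi-square per degree of freedom of 6.98 in small and 6.87 in large seeds, beside 2.75 to 4.45 for the other pairs of 3d libraries. Over all genes, same-numbered small and large libraries at 3d deviated together for replicates 1 and 3 (correlations of their residuals 0.46 and 0.34) but not for replicate 2 (-0.012). What the number stood for is not given in the labels.

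Of the seed transcription factors, HSFA9 and ABI5 fell and ABI4 and FUS3 rose. HSFA9, a seed-specific heat stress factor, had 47.9, 57.6 and 57 CPM in 3d small seeds, against 237, 299.8, 291 and 262 CPM in dry small seeds (-2.33 ± 0.16, adjusted p = 1.6e-12), and 58.8, 69.7 and 80.7 CPM in 3d large seeds, against 284, 303, 358 and 357 CPM in dry large seeds (-2.22 ± 0.15, adjusted p = 2.6e-12). ABI5, a bZIP factor of the ABA response, had 221, 229.8 and 219.8 CPM in 3d small seeds, against 463, 400.4, 502 and 409.6 CPM in dry small seeds (-0.997 ± 0.13 in small and -1.21 ± 0.13 in large seeds). Neither gene had overlapping groups. FUS3, a master regulator of seed maturation, had 18.5, 17.5 and 15.5 CPM in 3d small seeds, against 3.33, 0, 2.89 and 0 CPM in dry small seeds (3.07 ± 0.50 in small and 2.38 ± 0.39 in large seeds), and ABI4, a factor of ABA and sugar responses, rose as well (3.01 ± 0.57 and 2.33 ± 0.41). ABI3 was higher at 3d in large seeds (0.92 ± 0.14, adjusted p = 4.4e-06) and did not pass in small seeds (0.30 ± 0.15, adjusted p = 0.084). LEC1 had no count in any of the 14 libraries.

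**Figure D4:**
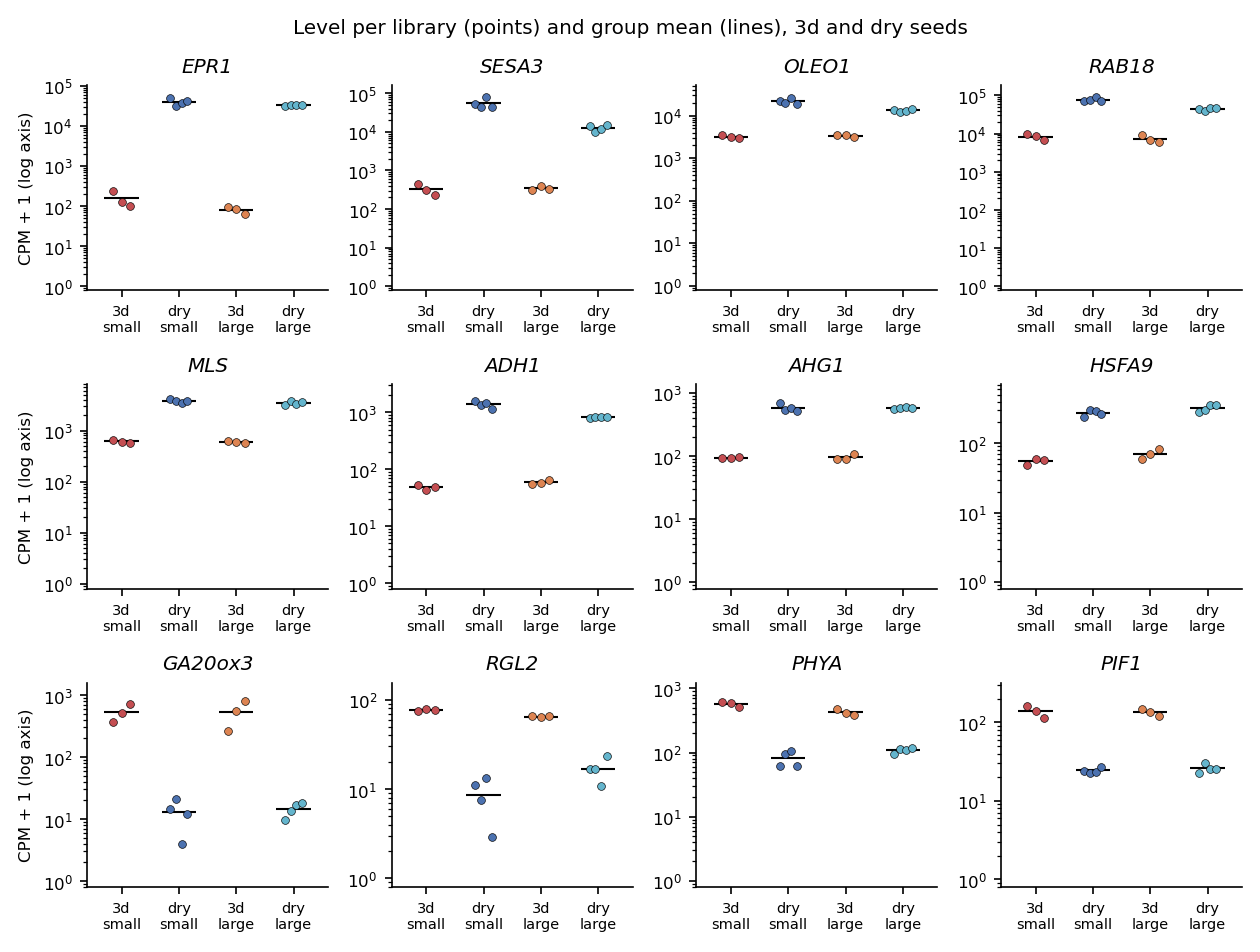
CPM plus 1 is plotted on a log axis for 12 genes in each library, with 3d left of dry for small and then for large seeds. Points are libraries and lines are group means. EPR1, SESA3, OLEO1, RAB18, MLS, ADH1, AHG1 and HSFA9 lie lower at 3d than in dry seeds of either size, and GA20ox3, RGL2, PHYA and PIF1 higher.

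Of 12 tested light signalling genes 2 rose and 5 fell, 16.7% and 41.7%, beside 23.8% and 20.7% of all tested genes. PHYA, the photoreceptor that accumulates in the dark, had 616, 596 and 513 CPM in 3d small seeds, against 61.7, 94.1, 103 and 61.7 CPM in dry small seeds (2.81 ± 0.16, adjusted p = 1.2e-13), and 479.7, 411 and 388 CPM in 3d large seeds, against 94.7, 112, 108 and 115 CPM in dry large seeds (1.98 ± 0.15, adjusted p = 3.1e-11). PIF1, which represses germination in the dark, had 159.9, 140.0 and 114 CPM in 3d small seeds, against 23.3, 21.9, 22.4 and 26.2 CPM in dry small seeds (2.57 ± 0.18 in small and 2.38 ± 0.16 in large seeds). PHYA and PIF1 were the risers, with no overlap of 3d and dry libraries. PHYD, PHYE, HY5, COP1 and SOM fell, of which HY5, a promoter of light responses, changed most (-3.63 ± 0.47 and -3.11 ± 0.45). SOM, a zinc finger gene downstream of PIF1, fell by 0.57 in small and 1.11 in large seeds on the log2 scale, where scaling by library totals alone left it at 0.0005 in small seeds. Of 9 tested clock genes 3 rose (33.3%, beside 23.8% of all tested genes) and none fell, with TOC1 at 1.59 ± 0.19 in small and 0.54 ± 0.16 in large seeds.

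Of 7 tested genes of the response to low oxygen 3 fell and 1 rose, 42.9% and 14.3%, beside 20.7% and 23.8% of all tested genes. ADH1, the alcohol dehydrogenase of fermentation, had 51.1, 43 and 48.5 CPM in 3d small seeds, against 1579, 1354, 1481 and 1167 CPM in dry small seeds (-4.87 ± 0.16, adjusted p = 2.9e-18), and 54.7, 56.5 and 63.7 CPM in 3d large seeds, against 787, 816, 816 and 835 CPM in dry large seeds (-3.80 ± 0.15, adjusted p = 7.5e-17). The pyruvate decarboxylases PDC1 (-2.39 ± 0.38 and -2.31 ± 0.34) and PDC2 (-2.66 ± 0.17 and -1.60 ± 0.16) fell as well. PCO2, an oxygen-sensing cysteine oxidase, was higher at 3d (0.90 ± 0.35 and 1.20 ± 0.30), and its call in small seeds was lost without 3d replicate 2 (0.82, adjusted p = 0.077) or 3 (0.86, adjusted p = 0.054) and without dry replicate 1 (0.87, adjusted p = 0.061), 3 (0.64, adjusted p = 0.19) or 4 (0.91, adjusted p = 0.0502). The 12 listed genes, tested or not, held 0.0219% of counts in 3d small and 0.0304% in 3d large seeds, against 0.153% in dry small and 0.128% in dry large seeds.

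Of 52 tested heat shock genes 20 fell and 10 rose, 38.5% and 19.2%, beside 20.7% and 23.8% of all tested genes, with medians of -0.26 in small and -0.40 in large seeds. HSP70, a heat-induced chaperone, had 275, 235 and 192 CPM in 3d small seeds, against 2624, 2549, 1911 and 2213 CPM in dry small seeds (-3.31 ± 0.20, adjusted p = 2.6e-13), and HSP101, which dissolves protein aggregates, changed by -2.62 in small and -2.56 in large seeds. HSP17.6A, a small heat shock protein, changed by -1.08 ± 0.17 and -0.80 ± 0.17. The risers included the luminal chaperones BIP1 (1.53 and 0.87) and BIP2 (2.15 and 1.99) of the endoplasmic reticulum and the mitochondrial HSP23.6-MITO (2.29 and 1.42). The median of this list turned positive in small seeds when libraries were scaled by their totals alone. Among antioxidant genes the 3 catalases parted, with CAT3 higher at 3d (0.82 ± 0.12 and 0.71 ± 0.12) and CAT2 (-1.45 ± 0.15 and -1.39 ± 0.14) and CAT1 (-3.83 ± 0.20 and -3.11 ± 0.20) lower.

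Of 278 tested ribosomal protein genes 68 rose and 26 fell in both sizes. Their share of risers (24.5%) was near that of all tested genes (23.8%), and their share of fallers (9.35%) was below it (20.7%). Counting the calls of each size on its own, 132 of the 278 were higher and 27 lower at 3d in small seeds, beside 32% and 25.9% of all tested genes. In large seeds 75 of the 278 were higher and 61 lower, beside 29.6% and 26.4% of all tested genes. The median log2 changes of the tested genes were 0.56 in small and 0.10 in large seeds. The list took 2.09% of counts in 3d small seeds, against 1.02% in dry small seeds, and 1.99% in 3d large seeds, against 1.62% in dry large seeds. At 3d the 2 sizes were nearly alike. Of these genes 23 were called for the difference between sizes, in each case with the more positive change in small seeds. Site II letters were found in 130 of their 278 promoters, beside 19.9% of all tested promoters. Of 38 tested proteasome genes 13 fell and 4 rose, 34.2% and 10.5%, beside 20.7% and 23.8% of all tested genes. Lower at 3d was, for example, RPN1A (-1.33 ± 0.16 and -0.82 ± 0.16) and, higher at 3d, AT1G53780 (1.86 ± 0.18 and 1.78 ± 0.17).

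Of 8 genes often used as internal references 4 fell and 1 rose, 50% and 12.5%, beside 20.7% and 23.8% of all tested genes. UBQ10, a polyubiquitin, had 362, 354 and 402 CPM in 3d small seeds, against 2059, 1676, 1231 and 1356 CPM in dry small seeds (-2.08 ± 0.16, adjusted p = 2.7e-11), and changed by -1.22 ± 0.15 in large seeds. The actins ACT2 (-2.50 ± 0.22 and -1.87 ± 0.21) and ACT8 (-2.75 ± 0.21 and -2.28 ± 0.22) fell, and so did the elongation factor EF1A (-0.59 ± 0.13 and -0.71 ± 0.13), with 0.0043 in small seeds under library totals alone. TIP41L did not pass in either size (0.34 ± 0.24 and -0.28 ± 0.21).

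Of 17 listed cell wall loosening genes 5 had enough counts to test, and 3 of them rose (60%, beside 23.8% of all tested genes). The risers were MAN7 (2.24 ± 0.68 and 1.86 ± 0.53), an endo-mannanase, XTH5 (2.15 ± 0.67 and 2.79 ± 0.56) and XTH16, which had no count in dry small seeds (at least 6.8-fold higher at 3d) and changed by 3.46 ± 0.91 in large seeds. Of 8 genes of DNA replication only PCNA2 could be tested, and it passed in large seeds alone (2.06 ± 0.50, adjusted p = 9.8e-04; 0.39 ± 0.54 in small seeds). Chloroplast genome transcripts rose in 32 of 66 tested genes (48.5%, beside 23.8% of all tested genes) and fell in 3, and took 0.491% of counts in 3d small and 0.574% in 3d large seeds, against 0.283% in dry small and 0.257% in dry large seeds. Among mitochondrial genome transcripts 8 of 21 rose (38.1%, beside the same 23.8%) and 2 fell. Organelle transcripts mostly lack long poly(A) tails, so their counts from oligo(dT) primers are a selected part.

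The change differed between small and large seeds for 328 genes (2.52% of those tested), 133 with a more positive change in small seeds and 195 with a more positive change in large seeds, and 2135 genes had an unadjusted p under 0.05. That split depended on the scaling, being 138 and 309 with DESeq2, 142 and 240 with upper-quartile factors, and 946 and 100 with library totals alone. When the shared replicate numbers of small and large seeds within each state were fitted as blocks, 677 genes were called. The count rested on single libraries, and was 183 without 3d small replicate 2, 184 without 3d large replicate 2, 201 without dry large replicate 2 and 191 without dry large replicate 3. Of the 328 genes 158 had also changed with the same sign in both sizes. In most of them the sizes differed more when dry, as the median absolute log2 gap between small and large seeds was 0.27 at 3d and 0.92 in dry seeds, with the larger gap in dry seeds for 267 genes and at 3d for 61. Over all tested genes this median was 0.16 at 3d and 0.33 in dry seeds. The gap was larger in dry seeds for 9177 of the 13001 tested genes and at 3d for 3824, so most genes shared this direction.

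The DELLA genes GAI and RGA, the gibberellin 2-oxidase gene GA2ox2 and HB-2, a homeodomain factor of the shade response, were highest in 3d small seeds. GAI had 128, 114 and 59.4 CPM in 3d small seeds, against 28.3, 24.1, 19.5 and 13.1 CPM in dry small seeds (2.26 ± 0.25, adjusted p = 2.7e-08). In large seeds GAI had 16.4, 21.1 and 20.5 CPM at 3d, against 29.1, 35.1, 28.2 and 34.7 CPM in dry seeds (-0.72 ± 0.24, adjusted p = 0.013), a call lost without dry large replicate 2 (-0.64, adjusted p = 0.052). It was lost as well with DESeq2 (-0.60, adjusted p = 0.060), upper-quartile factors (-0.52, adjusted p = 0.067), library totals alone (-0.48, adjusted p = 0.086) and single seeds thinned to 20000 counts (-0.59, adjusted p = 0.095). The difference between the changes was 2.97 ± 0.35 (adjusted p = 1.6e-05), with all 3d libraries of small seeds above, and all of large seeds below, the dry libraries of their size. RGA had 76.4, 68 and 46.8 CPM in 3d small seeds, against 5, 6.57, 0 and 0 CPM in dry small seeds, and 13.8, 19.2 and 16.3 CPM in 3d large seeds, against 8.5, 3.7, 4.6 and 5.6 CPM in dry large seeds, with a difference of 3.22 ± 0.70 (adjusted p = 0.011) that did not pass without dry small replicate 3 (2.37, adjusted p = 0.064). GA2ox2, which inactivates gibberellins, rose in both sizes but more in small seeds (4.29 ± 0.36 in small, 1.25 ± 0.29 in large seeds, adjusted p = 0.0015 for the difference). HB-2 had 164, 78 and 23.2 CPM in 3d small seeds, against 8.34, 8.75, 2.89 and 11.2 CPM in dry small seeds, and 4.09, 5.97 and 7.86 CPM in 3d large seeds, against 8.5, 10.6, 9.21 and 7.84 CPM in dry large seeds (difference 4.37 ± 0.83, adjusted p = 0.0033). Its 3 values in 3d small seeds were spread widely, and each lay above all other libraries.

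The mean was highest in dry small seeds for DOG1, ATS3 and SESA1, and lowest in dry large seeds for CRC. DOG1, the main dormancy gene of natural variation, had 21.8, 57.6 and 78.8 CPM in 3d small seeds, against 157, 116, 147 and 97.3 CPM in dry small seeds (-1.33 ± 0.31, adjusted p = 8.0e-04). In large seeds DOG1 had 39.8, 78.2 and 125 CPM at 3d, against 54.6, 51.8, 58.1 and 49.3 CPM in dry seeds, where the groups overlapped (0.60 ± 0.30, adjusted p = 0.095). Without 3d large replicate 1 the large-seed change passed (0.92, adjusted p = 0.005), as it did without 3d small replicate 1 (0.60, adjusted p = 0.03) or 3 (0.61, adjusted p = 0.044). It also passed with upper-quartile factors (0.80, adjusted p = 0.029), library totals alone (0.87, adjusted p = 0.031), no filter on low counts (0.58, adjusted p = 0.0062), single seeds thinned to 20000 counts (0.69, adjusted p = 0.027) and only the libraries of that size (0.59, adjusted p = 0.046). The fall in small seeds was lost with library totals alone (-0.70, adjusted p = 0.078). The difference between the sizes was -1.93 ± 0.43 (adjusted p = 0.014). For imbibed seeds the paper states that DOG1 lay under the detection limit of its single-seed method and was not directly assayable. The 3d values here are counts summed over single seeds. DOG1 had 459 counts from 90 of 96 small seeds and 769 counts from 91 of 96 large seeds. In dry seeds the paper reports a ratio of short to long DOG1 transcripts that changed with size. Counts per gene do not separate these transcripts. ATS3, an embryo-specific protein gene, was lower at 3d in small seeds, with 29.1, 34 and 45.4 CPM, against 198, 206, 262 and 118 CPM in dry small seeds, and higher at 3d in large seeds, with 43.9, 48.4 and 33.8 CPM, against 19.4, 5.55, 19.6 and 20.1 CPM in dry large seeds (difference -3.96 ± 0.39, adjusted p = 1.3e-06). SESA1 fell in both sizes, by more in small seeds (-6.01 ± 0.28 in small, -2.86 ± 0.24 in large seeds). CRC did not pass in small seeds (-0.05 ± 0.17) and was higher at 3d in large seeds, with 64940, 62350 and 62100 CPM, against 19420, 20520, 19430 and 22650 CPM in dry large seeds (1.62 ± 0.17, adjusted p = 1.3e-08). In SESA1 and CRC, as in ATS3, the 3d libraries of the 2 sizes lay close together and the dry libraries apart.

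**Figure D5:**
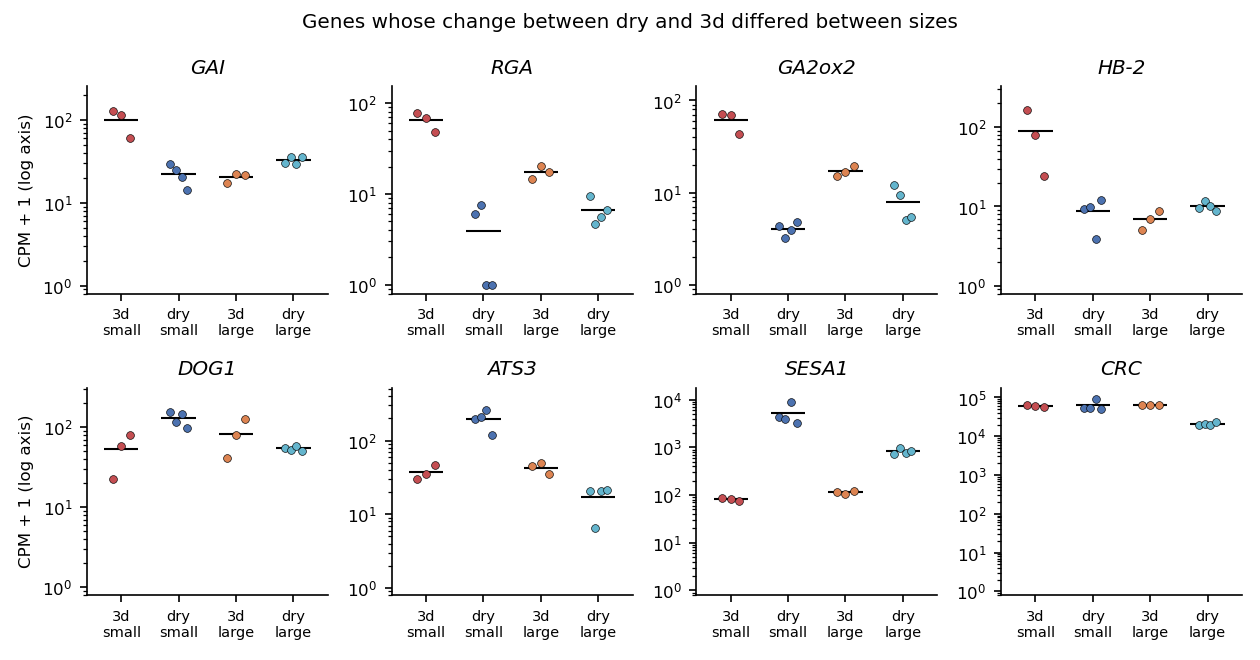
CPM plus 1 is plotted on a log axis for 8 genes in each library, with 3d left of dry for small and then for large seeds. Points are libraries and lines are group means. By group mean GAI, RGA, GA2ox2 and HB-2 are highest in 3d small seeds, and DOG1, ATS3 and SESA1 in dry small seeds, while CRC is lowest in dry large seeds.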

How the data were processed

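Per the labels and the methods of the study, 3′ RNA-seq reads of 55 nt were aligned to TAIR10, and the submitters' processing notes name STAR 2.7.8a, DESeq2 and Seurat. The authors deposited raw read counts per gene, for single seeds and for the dry pools. The primers carried molecular identifiers, and the study describes another pipeline, which removed duplicate reads, for its read profiles at DOG1. Whether the deposited gene counts were collapsed by molecule, and how strand and multi-mapping reads were handled, is not given in the sources used here. The 37184 genes listed for both single seeds and dry pools were used, and 4 columns of medium seeds were left out. Single-seed counts were summed per library of 32 seeds. At 3d 10.98% of counts lay outside genes and 0.186% were ambiguous, and neither entered the totals.

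The 14 libraries were fitted together with edgeR 4.0.16 (quasi-likelihood test, TMM factors, filterByExpr by group) in R 4.3.3, with contrasts of 3d minus dry in each size and of the difference between them, and adjusted over the 13001 tested genes. The procedure was tested on simulated data in which few genes changed, as many up as down. That setting cannot show how the scaling acts where many genes change, as here. Shares are percentages of counts on genes, with no test, because the lists were chosen by function with earlier results of these data known. The same holds for the members compared.

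Named genes were the 12 largest changes in each direction by the smaller of both log2 changes (called in both sizes, at least 10 CPM in the higher state, no overlap of libraries), the 3 most counted members of each list, all tested dormancy regulators, seed transcription factors, PP2C, ABA breakdown and gibberellin signalling genes, and the 6 largest differences between sizes in each direction. The text gives values for a selection of them, and none for DOGL4, HUB2, EEL, GID1C, HAB1, HAB2 and HAI2, for example. Other list members were named after their values were seen. Promoters were read from the RefSeq TAIR10.1 genome, and 36899 genes matched its annotation. No 2 replicates agreed within sampling noise. Alternatives covered DESeq2 1.42.0, other scaling, filters, depth, seeds and genes left out, each library left out, and the replicate number as a block. Of 207 named genes and list members, 7 overlap another gene on the same strand (among them MAN7, PHYE and AT4G24820) and 42 on the opposite strand, so their counts may include reads of the neighbour.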

Additional observations from a re-analysis of the deposited data

Results flagged for a closer look

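Of 88 groups of 4 dry libraries examined, 5 held a library that stood apart from the other 3, and chance alone gives about 1 in 20. In dry small seeds replicate 3 had 70910 CPM of CRA1, beside 38750 to 43410 CPM in the others, and 19880 CPM of CRB, beside 9150 to 10810 CPM. In dry large seeds replicate 4 had 1590 CPM of HSP70, beside 1245 to 1303 CPM, replicate 2 had 5.548 CPM of ATS3, beside 19.43 to 20.15 CPM, and the share of counts on EPR1 was 3.542% in replicate 2, beside 3.232% to 3.276%.

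For 19 genes of a chosen part of the named genes the change differed between small and large seeds in edgeR's test of the difference. They are not all the called genes of the lists. For example, 2 of 4 tested cruciferins, none of them among the 19, and 4 of 7 tested oil body genes, of which OLEO1 alone is among the 19, were called. The change in small seeds minus the change in large seeds, on the log2 scale, was positive for HB-2 (4.369), RGA (3.224), GA2ox2 (3.046), MYB31 (2.987), GAI (2.973), AT5G51110 (2.93) and PHYA (0.8238). It was negative for ATCG00680 (-5.009), ATCG00350 (-4.904), ATS3 (-3.965), SUC2 (-3.216), SESA1 (-3.146), SESA2 (-3.051), SESA3 (-2.198), DOG1 (-1.929), AT3G15670 (-1.282), ADH1 (-1.074), UBQ10 (-0.8659) and OLEO1 (-0.7856). Leaving out a single library ended the call for PHYA in 10 of the 14 cases, OLEO1 in 7, UBQ10 in 6 and MYB31 in 5, and for RGA (2.37, adjusted p = 0.064) and AT5G51110 (2.08, adjusted p = 0.053) in the case of dry small replicate 3.

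Counts outside annotated genes, which no comparison used, made up 10.98% of the counts at 3d, and no such count was used for dry seeds.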

How the results depend on the processing

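Single calls and counts of calls were judged by unlike rules, so their steadiness cannot be compared. The named genes include the largest changes of these data, so their calls do not stand for all calls. Of 11324 alternative values of named genes 10927 kept their direction and side of the threshold, 238 lost and 148 gained a call, and 11 reversed. Those 11 were all small-seed changes under library totals alone, namely SESA5 (0.4123), CRC (0.5513), HUB1 (0.5721), PYL5 (0.4806), SnRK2.3 (0.1793), SOM (0.0005194), LUX (0.1327), EF1A (0.004311), AT3G14595 (0.1883), AT4G24820 (0.07182) and LACS6 (0.04238), where the median of all genes was 0.79, against 0.17 with TMM. Thinning all libraries to the shallowest called fewer genes, with 4514 in small and 4086 in large seeds, 3254 with the same direction, 2222 at least 2-fold and 151 for the difference between sizes, and thinning single seeds to 20000 counts called 4753 in large seeds. For the difference, library totals alone gave 1046 genes. The replicate numbers did not pair 3d with dry libraries (mean residual correlation -0.034 in small and 0.0005 in large seeds). With the number as a replicate block 7330 genes were called in small and 7174 in large seeds, 5651 with the same direction, 3612 at least 2-fold and 341 for the difference, and with the replicate block within state, chosen after seeing the data, the difference was called for 677. With TMM-scaled library totals, also chosen after seeing the data, the share of storage, oil body and LEA genes together differed between 3d and dry seeds by -11.67 percentage points on average over both sizes, beside -2.11 with unscaled totals. Leaving out each library gave 6525 to 7657 genes in small seeds, 6512 to 7532 in large seeds, 5290 to 5660 with the same direction, 3398 to 3688 at least 2-fold and 183 to 384 for the difference. The causes of these shifts were not tested. DESeq2 called 3280 risers and 2292 fallers, upper-quartile factors 3953 and 2105, and library totals alone 4569 and 1501. The 3 shallowest libraries were all of dry small seeds, and whether depth limits the low genes most was not tested.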
